A study of Mus musculus with 10 samples.

Results

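The proteasome genes were examined in cultured mouse bone marrow macrophages with and without plasminogen. They were taken as every gene of the deposited protein-coding table whose symbol begins with Psm, a letter from a to g and a digit, which gave 50 of 16936 genes. The proteasome is a barrel-shaped protease that degrades proteins tagged with ubiquitin. Its core is built of outer alpha rings and inner beta rings, and only some of the beta subunits cut peptide bonds. A regulatory cap, made of a lid and a base that holds a ring of ATPases, recognises, unfolds and feeds in the tagged protein. In cells that meet interferon or are of the immune system, alternative catalytic beta subunits can take the place of the constitutive ones, and the resulting immunoproteasome, with the activator PA28, is known for supplying peptides to MHC class I.

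Both groups were total RNA libraries from mouse cells labelled as macrophages derived from bone marrow, after 7 days of differentiation with the growth factor GM-CSF (50 ng/mL). One group of 5 samples was left untreated and the other group of 5 received PLG, human plasminogen by the series design, for 24 h. No control preparation is named, so plasminogen and anything else in the preparation cannot be told apart, and the labels give no mouse strain, age or dose. Nothing says that the samples came from separate mice or cultures, so p-values measure only the spread between these samples, which may be technical. Values are FPKM, read fragments scaled to gene length and library size. Differences are log2(FPKM + 1), PLG minus untreated, tested by limma with Benjamini-Hochberg adjustment over the 9997 genes that reached 1 FPKM in at least 5 samples. The pseudocount makes these differences understate the change of low genes.

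The libraries held 28426106 to 64214553 reads on the table, and 1 read on a 1 kb gene was worth 0.0141 to 0.0313 FPKM. Samples correlated at 0.976 to 0.995 within groups and at 0.847 to 0.868 between them (Pearson's r across genes, which are not independent replicates). Markers of macrophages were present in all samples, but 5 of 7 fell with PLG and 1, Adgre1, rose. Their summed level went from 5842-7357 FPKM to 2565-2777 FPKM, and most of it was Lyz2 (mean 5792 and 2000 FPKM). Of 5 dendritic cell markers 3 rose and 2 fell, with sums of 565-691 FPKM and 905-998 FPKM. Ccr7 went from 38.1 to 542 FPKM on average, and Zbtb46 and Flt3 rose at low levels (at most 6.40 FPKM on average). Flt3 was at 0.056 to 0.175 FPKM untreated and at 1.64 to 2.83 FPKM with PLG. It was thus tested only because its PLG samples reached 1 FPKM. Itgax (270 and 156 FPKM) and H2-Ab1 (313 and 248 FPKM) fell. Of 8 neutrophil markers 6 were in the table, 4 were tested and 2 rose, with sums of 10.5-19.96 FPKM and 16.6-26.3 FPKM. The 2 that rose were S100a8 (7.07 ± 1.01 to 11.9 ± 2.52 FPKM, SD, n = 5 each) and Camp (0.254 ± 0.351 to 2.40 ± 1.01 FPKM), both without overlap. Camp was at most 0.814 FPKM untreated and at least 1.10 FPKM with PLG, so it too was tested only through its PLG samples. Mpo and Ly6g were listed at 0 in every untreated sample and reached at most 0.077 and 0.449 FPKM in PLG samples. S100a9 and Ngp were also tested and did not pass, and both had lower means with PLG and overlapping groups. S100a9 went from 5.32 to 3.80 FPKM on average (adjusted p = 0.779, limma). Ngp went from 2.42 to 2.29 FPKM on average (adjusted p = 0.781, limma). S100a8, S100a9 and Ngp were above 0 in every sample of both groups. Markers of T, B, NK, stromal and erythroid cells summed to at most 1.43 FPKM per list in any sample and none of them was tested. The only tested marker of mast cells and basophils, Cpa3, did not pass (adjusted p = 0.234, limma). These counts of markers stand beside 29.1% of all genes tested that rose and 31.3% that fell. The part that these marker differences have in the results was not tested, and in bulk RNA fewer cells of a type and less RNA per cell cannot be told apart.

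Most proteasome genes were higher after PLG. Of the 47 members that passed the low-value filter, 36 rose, 1 fell and 10 did not pass the test. The largest rises were in the PA28 subunit Psme2, the immunoproteasome subunit Psmb9 and the assembly factor Psmd10, and the gene that fell was the lid subunit Psmd8. Over all genes tested, 29.1% rose and 31.3% fell, against 76.6% of these members that rose. The median difference was 0.40 over the members and -0.02 over all genes tested. In 25 members every PLG sample lay above every untreated sample and in 1 every PLG sample lay below, where 22.7% and 24.5% of all genes tested did so. A rise of at least 2-fold was seen in 8 members, Psma5, Psma6, Psma7, Psmb8, Psmb9, Psme1, Psme2 and Psmd10, beside 8.35% of all genes tested. Psma5, Psma6 and Psma7 lay close to that limit, with differences of 1.04, 1.01 and 1.01. Leaving out 1 sample at a time gave 31 to 36 members that rose.

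The tested members were also abundant genes. Their median level over the 10 samples was 21.7 FPKM against 7.22 FPKM for all genes tested, and 41 of the 47 lay above the latter. Together the 50 genes took 0.307% to 0.336% of the reads on the table in untreated samples and 0.408% to 0.470% in PLG samples, and the groups did not overlap. The share of reads on 3 repeat-like gene models, Gm10800, Gm10801 and Gm21738, varied from 0.130% to 5.92%. The samples lowest in them were untreated 2, PLG 3 and PLG 4, and these had the highest member shares of their groups, 0.336%, 0.465% and 0.470%. PLG 3 or PLG 4 also held the highest PLG value for 31 of the 36 members that rose. With those 3 samples left out 31 members rose, beside 2352 of all 9706 genes then tested (2974 fell). With the 3 models taken out of the read totals 35 members rose, beside 2840 of 10038 genes (3329 fell). Mitochondrial genes took 1.53% to 1.59% of reads in untreated samples and 1.02% to 1.14% in PLG samples, and the part this has in the result was not tested.

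**Figure D1:**
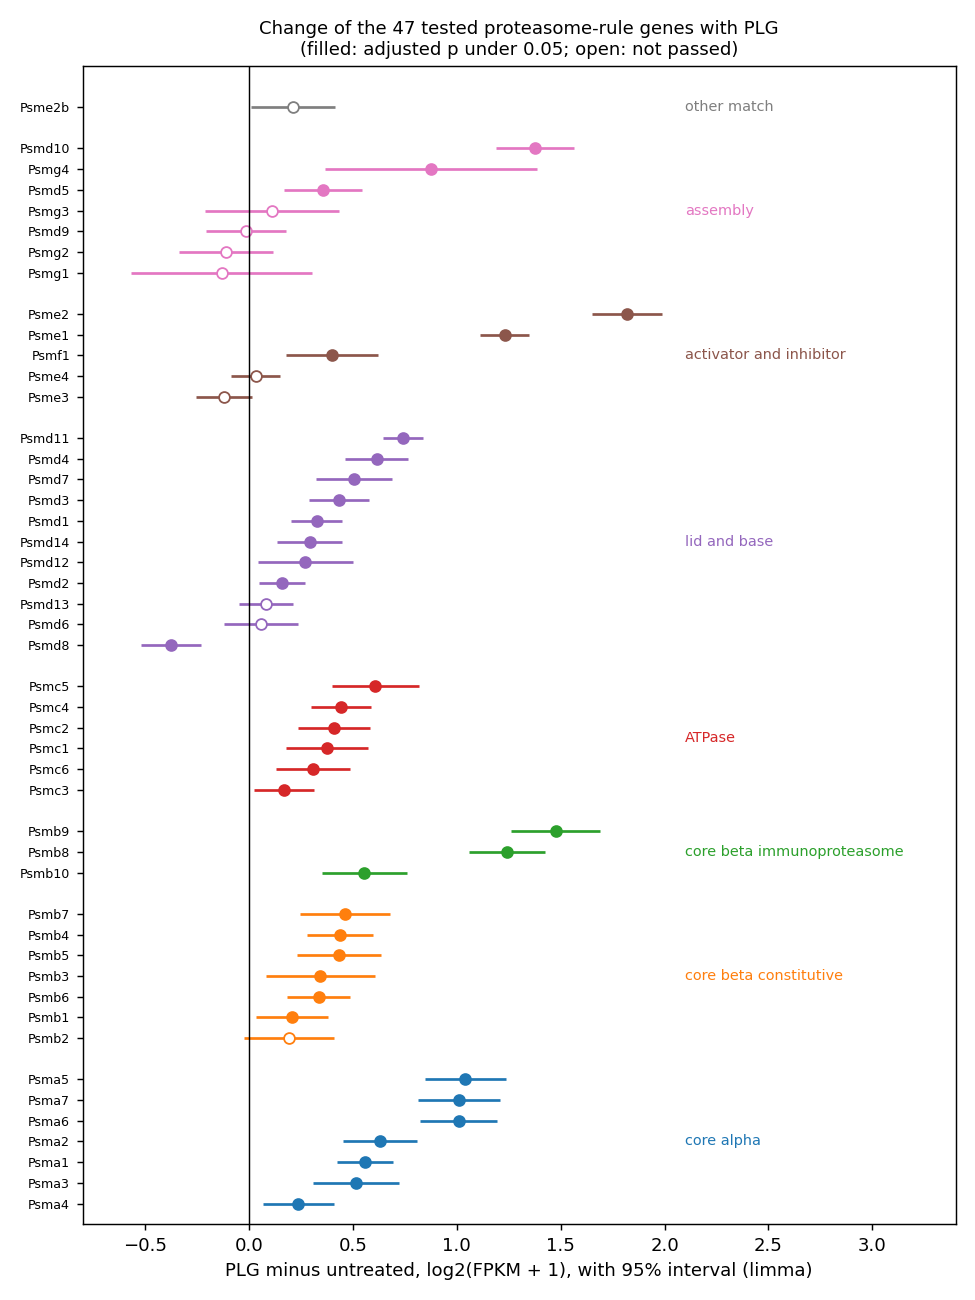
Difference between 5 PLG and 5 untreated samples for each of the 47 tested genes, as log2(FPKM + 1) with its 95% interval from limma, ordered within each class. Filled points passed at an adjusted p under 0.05, and Psmd8 is the only filled point left of the zero line.

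The alpha ring genes, whose products form the gate of the core, all rose where they were tested, 7 of 7, with a median difference of 0.63. Psma5, Psma6 and Psma7 about doubled and the other 4 rose by less. The doubling of these 3 was borderline. Without the 3 samples lowest in the repeat-like models their differences were 0.896, 0.928 and 0.866, and after quantile normalization 0.900, 0.839 and 0.921. Psma5 was at 27.2, 28.4, 31.0, 33.5 and 34.8 FPKM in untreated samples 1 to 5 and at 65.7, 55.4, 73.1, 72.7 and 57.7 FPKM in PLG samples 1 to 5. The groups lay far apart, and the difference was 1.04 (SE 0.090, adjusted p = 2.29e-07, limma). Psma6 was at 40.3, 45.2, 42.7, 36.5 and 45.9 FPKM untreated and at 80.8, 75.3, 105.5, 86.7 and 82.0 FPKM with PLG, a difference of 1.01 (SE 0.086). Its lowest PLG sample stood well above its highest untreated sample. Psma7 went from 13.1, 14.9, 14.6, 15.0 and 16.5 FPKM to 27.6, 27.0, 36.7, 35.4 and 28.5 FPKM, also a difference of 1.01 (SE 0.091). PLG 3 and PLG 4 were the highest samples of Psma7, and no PLG sample reached down to the untreated range.

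Psma1 went from 22.7 ± 1.12 to 33.9 ± 2.96 FPKM (SD, n = 5 each), Psma2 from 17.4 ± 1.87 to 27.4 ± 2.78 FPKM and Psma3 from 12.2 ± 1.81 to 17.9 ± 1.98 FPKM. In all of these the groups did not overlap. Psma4 was the alpha subunit with the smallest difference, 0.24 (SE 0.079, adjusted p = 0.0195, limma), from 32.9 ± 2.96 to 39.0 ± 4.56 FPKM with overlapping groups. Its adjusted p over all alternatives ran from 0.00383 to 0.168, and without untreated 4 it was 0.0515. Psma8, a germ cell form of an alpha subunit, was below the filter, with 281 reads summed over the untreated samples and 232 over the PLG samples. It ranged from 0.356 to 1.09 FPKM untreated and from 0.197 to 0.483 FPKM with PLG, so its groups overlapped.

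Of the 7 constitutive beta genes 6 rose, with a median difference of 0.34, and none reached 2-fold. Psmb5, the chymotrypsin-like subunit, was at 55.9, 58.7, 47.8, 44.3 and 56.0 FPKM untreated and at 65.7, 62.4, 77.9, 84.0 and 66.8 FPKM with PLG. The difference was 0.43 (SE 0.093, adjusted p = 0.0012, limma), with the groups apart by a few FPKM. Psmb6, the caspase-like subunit, was at 56.6, 56.0, 59.5, 50.1 and 54.9 FPKM untreated and at 68.4, 60.7, 78.8, 76.7 and 67.8 FPKM with PLG. Its difference was 0.34 (SE 0.070, adjusted p = 9.27e-04, limma), and PLG 2 lay just above the highest untreated sample. Psmb7, the trypsin-like subunit, was at 7.07, 6.22, 6.29, 5.76 and 7.89 FPKM untreated and at 9.45, 7.54, 11.3, 10.1 and 9.37 FPKM with PLG. Its groups overlapped through untreated 5 and PLG 2, and the difference was 0.46 (SE 0.1004, adjusted p = 0.00129, limma).

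The other constitutive beta subunits have no catalytic site. Psmb4 rose from 28.8 ± 1.84 to 39.5 ± 4.39 FPKM (SD, n = 5 each) with no overlap. Psmb1 (17.6 ± 1.93 and 20.4 ± 1.79 FPKM) and Psmb3 (15.2 ± 2.27 and 19.6 ± 3.56 FPKM) passed narrowly, at adjusted p = 0.0401 and 0.0261 (limma). Psmb1 did not pass without any one of untreated 1, 2 or 4 or PLG 3, 4 or 5, where its adjusted p was 0.0541 to 0.0999. Psmb3 did not pass without any one of untreated 1 or 4 or PLG 3 or 4, at 0.0522 to 0.0694. Over all alternatives their adjusted p ran from 0.0208 to 0.467 and from 0.0103 to 0.0889. Psmb2 did not pass, at 32.4 ± 5.33 FPKM untreated and 36.9 ± 2.90 FPKM with PLG (difference 0.19, 95% interval -0.02 to 0.41, adjusted p = 0.11, limma).

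The 3 immunoproteasome subunits, the alternative catalytic subunits of the core, all rose, with a median difference of 1.241 and no overlap between groups. Psmb8, the alternative to Psmb5, was at 18.0, 17.9, 16.3, 13.0 and 15.4 FPKM untreated and at 37.4, 35.9, 39.0, 44.6 and 39.5 FPKM with PLG. The lowest PLG sample stood far above the highest untreated sample, and the difference was 1.241 (SE 0.085, adjusted p = 2.14e-08, limma). Psmb9, the alternative to Psmb6, was at 4.04, 4.92, 5.52, 5.88 and 4.38 FPKM untreated and at 13.9, 14.6, 18.6, 15.8 and 14.7 FPKM with PLG. It had the larger difference, 1.48 (SE 0.098, adjusted p = 1.58e-08, limma). Psmb10, the alternative to Psmb7, was at 35.1, 34.1, 38.8, 41.5 and 29.1 FPKM untreated and at 51.4, 43.7, 57.3, 54.1 and 57.7 FPKM with PLG. It rose by 0.55 (SE 0.095, adjusted p = 1.82e-04, limma), and untreated 4 and PLG 2 were close to each other. Psmb11, the catalytic subunit of the thymus form, had 40 reads over the untreated samples and 14 over the PLG samples, and was not tested.

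**Figure D2:**
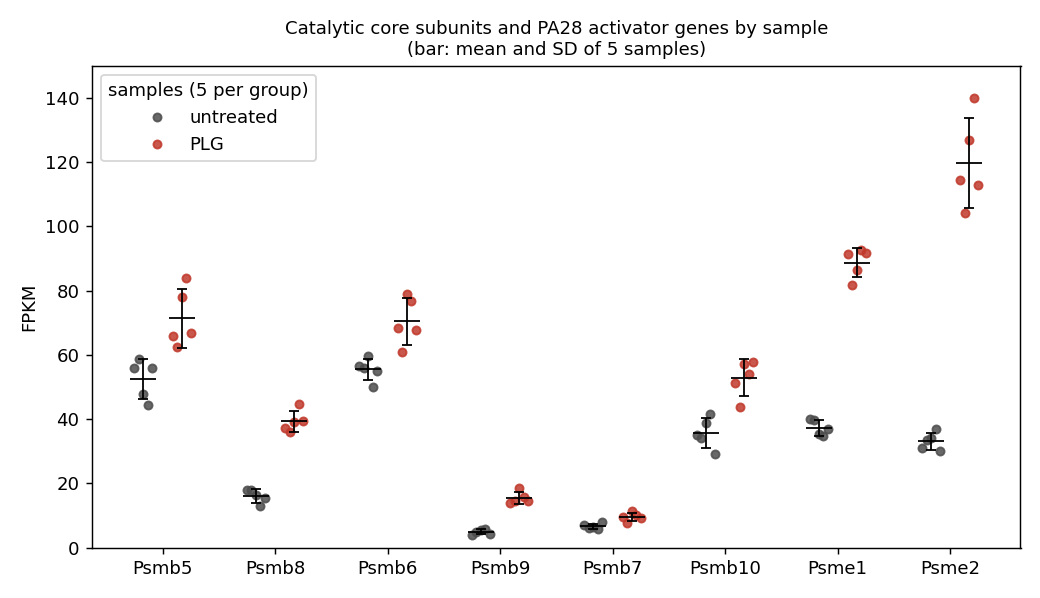
FPKM of each sample for the 3 constitutive catalytic subunits, their immunoproteasome alternatives and the PA28 subunits Psme1 and Psme2, with the mean and SD of 5 samples per group. Psmb8, Psmb9, Psme1 and Psme2 show the widest gaps between the groups relative to their level, and Psmb7 is the only gene shown whose groups overlap.

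Each immunoproteasome subunit was set against the constitutive subunit it replaces within the same sample. The ratios are given as FPKM over FPKM, which removes any factor common to a library. They were tested as log2 with 1 FPKM added to both genes, which does not remove such a factor fully. The ratio of Psmb8 to Psmb5 was 0.322, 0.305, 0.340, 0.292 and 0.275 untreated and 0.569, 0.576, 0.501, 0.531 and 0.591 with PLG. The groups did not overlap, and the log2 ratio was higher by 0.81 (exact two-sided permutation test, p = 0.00794, 0.0119 after adjustment over the 3 ratios). The ratio of Psmb9 to Psmb6 was 0.0715, 0.0878, 0.0927, 0.117 and 0.0797 untreated and 0.204, 0.240, 0.236, 0.206 and 0.216 with PLG. It too separated the groups, by 1.14 in log2 (exact permutation p = 0.00794, adjusted 0.0119), and 0.00794 is the smallest p that 5 against 5 samples can give. The ratio of Psmb10 to Psmb7 was 4.97, 5.48, 6.17, 7.21 and 3.69 untreated and 5.43, 5.79, 5.08, 5.36 and 6.16 with PLG. These PLG values all fell inside the untreated range, with a difference of 0.09 (exact permutation p = 0.627). That pair's difference was -0.03 without untreated 5, the lowest sample, and it was also negative after quantile normalization, so it had no stable direction.

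**Figure D3:**
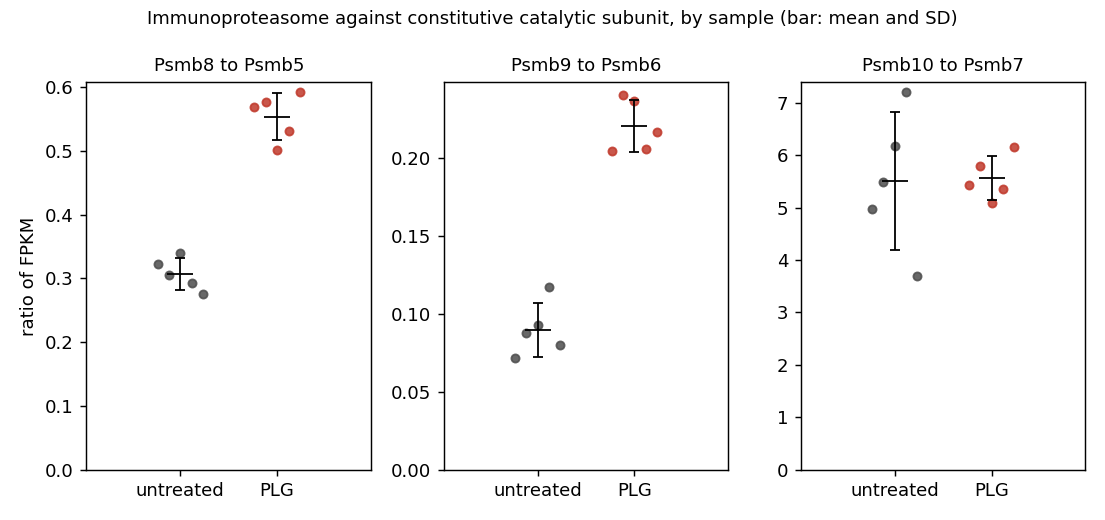
Ratio of FPKM of each immunoproteasome subunit to the constitutive subunit it replaces, one point per sample with the mean and SD of 5 samples per group. The groups are apart for Psmb8 to Psmb5 (0.307 and 0.554 on average) and Psmb9 to Psmb6 (0.0898 and 0.220), and overlap for Psmb10 to Psmb7 (5.51 and 5.57).

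PA28 is a ring of Psme1 and Psme2 products that opens the core without ATP and is known to be induced by interferon gamma. Psme1 was at 39.9, 39.6, 35.2, 34.7 and 36.9 FPKM untreated and at 91.4, 81.7, 86.4, 92.6 and 91.6 FPKM with PLG. The difference was 1.23 (SE 0.054, adjusted p = 2.2e-10, limma). Psme2 was at 31.2, 33.4, 34.1, 36.9 and 30.1 FPKM untreated and at 114, 104, 127, 140 and 113 FPKM with PLG. This was the largest difference of any member, 1.82 (SE 0.078, adjusted p = 1.73e-10, limma), and no sample of either gene came near the other group. Psme3, which forms a nuclear activator of the same fold, did not pass (27.7 ± 0.697 and 25.5 ± 2.42 FPKM, SD, n = 5 each). Its difference was -0.12 (adjusted p = 0.111, limma; 0.015 to 0.715 over all alternatives), and it passed as lower without PLG 2, at 0.0386. Psme4, the large activator PA200, did not pass either (21.4 ± 1.40 and 21.9 ± 0.839 FPKM), with a 95% interval of the difference from -0.08 to 0.15. Psmf1, the inhibitor PI31, rose from 2.74 ± 0.491 to 3.92 ± 0.337 FPKM (difference 0.40, adjusted p = 0.00391, limma) without overlap.

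Psmb8 and Psmb9 lie near each other, as do Psme1 and Psme2 on another chromosome, while Psmb10 lies apart from both pairs on chromosome 8. Promoters are shown for the genes of these pairs, Psmb8, Psmb9, Psme1 and Psme2. On chromosome 17 (GRCm38) Psmb9 lies at chr17:34181987-34187764 on the minus strand and Psmb8 at chr17:34197721-34201454 on the plus strand. Between them lies Tap1, a subunit of the transporter that carries peptides to MHC class I, at chr17:34187553-34197225, which overlaps Psmb9 by 212 bases on the opposite strand. Their RefSeq start sites are 226 bases apart. Tap2, the partner of Tap1, follows at chr17:34203527-34216321. Psme1 (chr14:55578123-55581529) and Psme2 (chr14:55587441-55591113) are separated by 5911 bases on chromosome 14, and Psmb5 and Psmb11 by 3410 bases on the same chromosome.

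Each sequence runs 5′ to 3′ from 250 bases before the RefSeq start site (GRCm38.p6) to 20 bases after it, and capitals mark a motif match on either strand. Psmb8 is chr17:34197945-34198214 (plus), Psmb9 chr17:34187311-34187580 (minus), Psme1 chr14:55578244-55578513 (plus) and Psme2 chr14:55591082-55591351 (minus).
Psmb8: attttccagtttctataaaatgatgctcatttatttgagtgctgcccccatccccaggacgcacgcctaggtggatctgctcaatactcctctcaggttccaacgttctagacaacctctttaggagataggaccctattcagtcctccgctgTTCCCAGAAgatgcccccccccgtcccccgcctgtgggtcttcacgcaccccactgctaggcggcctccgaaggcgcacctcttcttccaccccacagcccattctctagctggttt
Psmb9: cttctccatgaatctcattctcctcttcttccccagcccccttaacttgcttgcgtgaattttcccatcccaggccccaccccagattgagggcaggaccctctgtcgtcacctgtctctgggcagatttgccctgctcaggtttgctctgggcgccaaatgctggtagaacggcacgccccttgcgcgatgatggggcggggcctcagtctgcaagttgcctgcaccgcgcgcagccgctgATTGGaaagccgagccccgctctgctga
Psme1: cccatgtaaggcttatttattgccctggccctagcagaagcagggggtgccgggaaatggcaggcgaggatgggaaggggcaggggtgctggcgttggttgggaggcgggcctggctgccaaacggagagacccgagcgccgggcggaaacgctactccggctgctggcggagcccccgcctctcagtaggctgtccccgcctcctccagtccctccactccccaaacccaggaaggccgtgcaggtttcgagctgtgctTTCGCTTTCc
Psme2: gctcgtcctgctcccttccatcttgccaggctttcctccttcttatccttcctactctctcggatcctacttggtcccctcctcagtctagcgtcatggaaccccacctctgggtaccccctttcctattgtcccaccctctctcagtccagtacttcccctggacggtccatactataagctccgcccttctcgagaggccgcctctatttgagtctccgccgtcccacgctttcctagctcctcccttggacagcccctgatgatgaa
The capitals in Psmb8 match TTCNNNGAA, the core of an interferon gamma activated site. Those in Psmb9 match CCAAT read on the other strand, and those in Psme1 match GAAANNGAA, the core of an interferon response element, also on the other strand and just after the start. Psme2 held none of the motifs searched in the bases shown. In GENCODE M21 the models of all 4 genes begin further upstream than the RefSeq start. The whole stretch shown lies inside the gene model for Psmb8, Psmb9 and Psme1, and a part of it for Psme2, so these bases may be transcribed.

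Across the members 42 of 50 had a RefSeq promoter, 45 promoters in all, and the motifs were counted on both strands in 250 bases before to 50 after the start. GAAANNGAA was in 15.6% of the member promoters and in 8.56% of all 32851 promoters. It was found at Psmb3, Psmb4, Psmc2, Psmd4, Psmd9, Psme1 and Psmg4, whose differences ranged from the 1.23 of Psme1 to the -0.01 of Psmd9. TTCNNNGAA was in 6.67% of member promoters (Psmb8, Psmd2 and Psmg1) and in 8.30% of all. TGACNNNGC, a core of the antioxidant-type element read by the NRF factors that drive proteasome genes, was in 13.3% and 12.4%. CCAAT was in 33.3% and 37.4%, and GGGANNTTCC, a kappaB-type motif, in 2.22% (Psme4) and 1.47%. These matches are descriptions of letters, not of binding, and motifs of different length can overlap.

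All 6 ATPase genes, whose products form the ring that unfolds substrates, rose, with a median difference of 0.39 and a range of 0.17 to 0.61. Psmc5 had the largest, from 24.7, 20.9, 21.7, 22.2 and 23.3 FPKM untreated to 32.1, 27.7, 39.0, 42.5 and 35.0 FPKM with PLG (SE 0.096, adjusted p = 9.04e-05, limma). PLG 2 was its lowest PLG sample and still above every untreated sample. Psmc4 went from 22.7 ± 2.31 to 31.2 ± 1.62 FPKM and Psmc2 from 12.5 ± 1.42 to 16.9 ± 1.55 FPKM (SD, n = 5 each), both without overlap. Psmc1 (35.7 ± 5.49 and 46.3 ± 3.85 FPKM) and Psmc6 (17.3 ± 2.73 and 21.4 ± 0.528 FPKM) rose with overlap, since untreated 2 reached the PLG range in both. Psmc3 passed narrowly, from 25.8 ± 2.39 to 29.0 ± 1.76 FPKM (difference 0.17, adjusted p = 0.0450, limma; 0.00876 to 0.385 over all alternatives). It did not pass without any one of untreated 1 or 4 or PLG 1, 3, 4 or 5, at 0.0709 to 0.112.

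Of the 11 genes of the lid and base other than ATPases, 8 rose, 1 fell and 2 did not pass, with a median difference of 0.29. Psmd11, a lid subunit, had the largest rise and the least spread, from 13.5, 13.98, 13.3, 13.3 and 14.4 FPKM to 23.2, 24.1, 23.1, 23.3 and 24.1 FPKM. Its difference was 0.74 (SE 0.045, adjusted p = 6.51e-09, limma). Psmd4, a ubiquitin receptor of the cap, went from 14.5, 16.3, 16.6, 15.8 and 14.7 FPKM to 22.5, 21.5, 25.7, 27.5 and 25.1 FPKM (difference 0.62, SE 0.070, adjusted p = 3.95e-06, limma). In both genes the groups were apart. Psmd14, the deubiquitinase of the lid, rose from 22.2 ± 2.55 to 27.2 ± 1.33 FPKM and its partner Psmd7 from 24.9 ± 2.80 to 35.8 ± 3.73 FPKM (SD, n = 5 each). The groups of Psmd14 overlapped through untreated 5, and those of Psmd7 did not. Psmd1 and Psmd2 are the large scaffolds of the base. Psmd1 rose from 17.2 ± 1.13 to 21.8 ± 1.07 FPKM, and Psmd2 from 56.7 ± 2.36 to 63.5 ± 3.79 FPKM. The difference of Psmd2 was only 0.16 (adjusted p = 0.0147, limma), and -0.01 after quantile normalization. Psmd3, a lid subunit, rose from 14.1 ± 1.253 to 19.3 ± 1.235 FPKM.

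Psmd12, another lid subunit, went from 18.8 ± 3.35 to 22.6 ± 2.11 FPKM (SD, n = 5 each; adjusted p = 0.0405, limma; 0.0127 to 0.118 over all alternatives). It did not pass without any one of untreated 1, 3 or 4 or PLG 2, 3, 4 or 5, at 0.0527 to 0.102. Psmd6 (13.2 ± 1.73 and 13.7 ± 1.09 FPKM) and Psmd13 (17.1 ± 1.21 and 18.1 ± 1.01 FPKM), also of the lid, did not pass. The 95% intervals of the difference ran from -0.12 to 0.23 and from -0.05 to 0.21. Psmd8, likewise a lid subunit, moved the other way. It was at 74.5, 78.3, 78.2, 72.2 and 82.8 FPKM untreated and at 54.2, 55.0, 62.5, 69.0 and 56.3 FPKM with PLG. Every PLG sample was below every untreated sample, and the difference was -0.38 (SE 0.067, adjusted p = 2.5e-04, limma). It was the highest of all tested members in untreated cells at the deposited gene lengths.

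The assembly factors, which help build the particle and are not part of it, were mixed: 3 of 7 rose and 4 did not pass, with a median difference of 0.11. Psmd10, the base chaperone gankyrin, was at 12.3, 10.4, 10.4, 11.3 and 10.6 FPKM untreated and at 30.01, 25.9, 33.9, 35.4 and 26.6 FPKM with PLG. All PLG samples were at more than 2 times any untreated sample, and the difference was 1.38 (SE 0.086, adjusted p = 8.38e-09, limma). Psmd5, also a chaperone of the base, rose from 5.75 ± 0.782 to 7.60 ± 0.504 FPKM (SD, n = 5 each; difference 0.36, adjusted p = 0.00295, limma). The third such chaperone, Psmd9, was at 1.82 ± 0.145 and 1.80 ± 0.276 FPKM and did not pass, with a 95% interval from -0.21 to 0.18. Psmg4, one of the chaperones of the alpha ring, was at 5.81, 11.7, 13.5, 6.59 and 5.26 FPKM untreated and at 13.4, 11.9, 23.7, 15.8 and 15.0 FPKM with PLG. Its groups overlapped and it had the largest standard error of any tested member (difference 0.87, SE 0.236, adjusted p = 0.00574, limma). The other alpha ring chaperones did not pass. Psmg1 was at 5.26 ± 2.39 and 4.41 ± 0.288 FPKM, Psmg2 at 3.48 ± 0.463 and 3.16 ± 0.489 FPKM and Psmg3 at 1.84 ± 0.535 and 2.07 ± 0.595 FPKM. The untreated spread of Psmg1 ran from 2.61 to 8.97 FPKM, wider than the difference between its means.

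The symbol rule also took in 2 genes that are not subunits. Psme2b is a single-exon copy of Psme2, so reads could be shared between them, and its values are uncertain. It did not pass (18.6 ± 1.91 and 21.8 ± 3.20 FPKM, SD, n = 5 each; adjusted p = 0.0633, limma; 0.0223 to 0.211 over all alternatives), but passed as higher without any one of untreated 2, PLG 2 or PLG 4, at 0.0223 to 0.0407. Psmc3ip encodes a partner of Psmc3 that acts in recombination, and it was below the filter with 125 reads over the untreated samples and 174 over the PLG samples.

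Levels between genes depend on the length chosen. The deposited length of all 50 genes equals the joined length of all their annotated exons in GENCODE M21, which is 1 to 3.36 times (median 1.64) that of the principal transcript. By the deposited length, Psmb1 to Psmb5 ranged from 15.2 to 52.5 FPKM in untreated cells. By the length of the principal transcript, and if all reads belong to it, the same 5 genes lay within 45.4 to 52.5 FPKM. The other core genes did not draw together in this way, with Psmb6 at 130 FPKM and Psmb7 at 19.6 FPKM, and the alpha genes from 16.7 FPKM (Psma3) to 66.9 FPKM (Psma4). The ratio of Psmb8 to Psmb5 became 0.638 untreated and 1.15 with PLG, that of Psmb9 to Psmb6 0.104 and 0.254, and that of Psmb10 to Psmb7 2.43 and 2.45. Whether Psmb8 stood below or above Psmb5 after PLG thus turned with the length, while the ratio between the groups did not depend on it. Of the 50 genes 24 overlap another annotated gene, and since the strand setting of the counting is not given in the sources used here, reads there cannot be assigned with certainty.

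**Figure D4:**
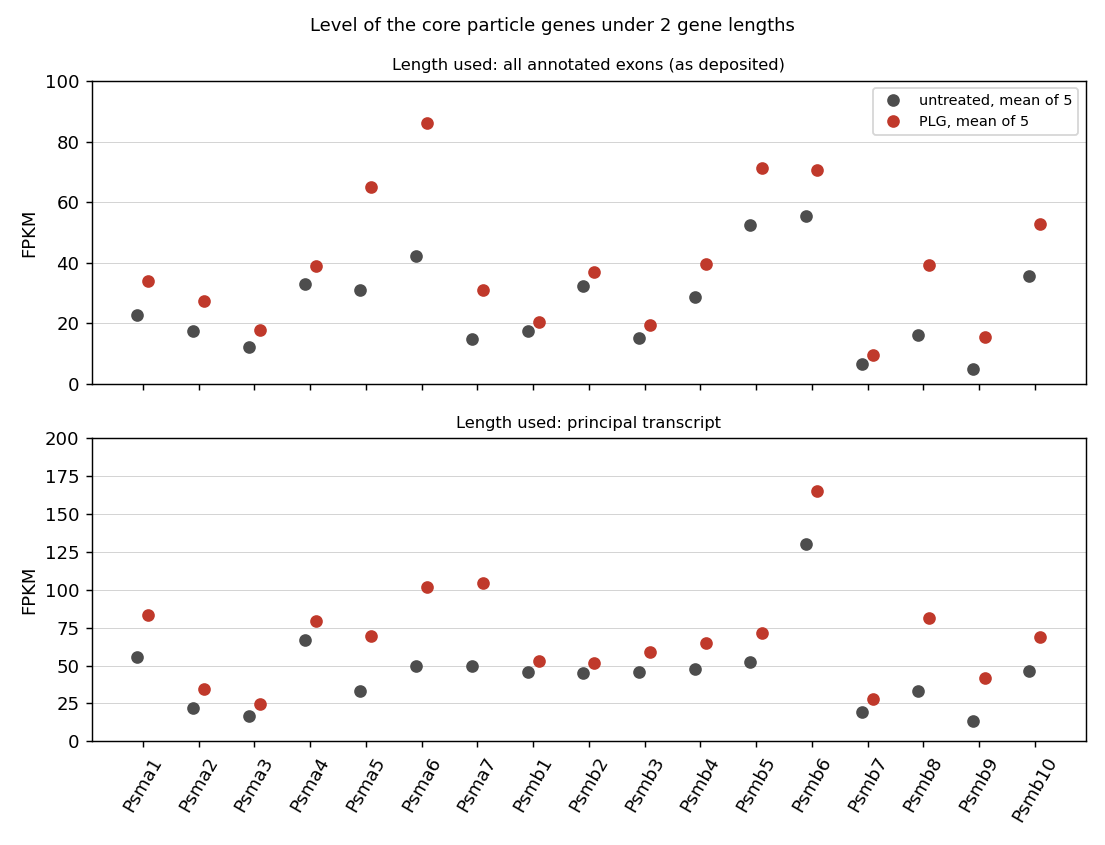
Mean FPKM of the core particle genes in untreated (grey) and PLG (red) samples, 5 per group, by the deposited length of all annotated exons (upper panel) and by the length of the principal transcript (lower panel). Psmb1 to Psmb5 spread from 15.2 to 52.5 FPKM in untreated samples of the upper panel and lie level in the lower one, where Psmb6 stands alone at 130 FPKM.

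Genes that work with the proteasome were read from lists, beside the same 29.1% and 31.3% of all genes. Of 10 proteasome-bound partners 5 rose, 1 fell and 4 did not pass, with a median difference of 0.08. Pomp, the maturation factor of the core, rose from 12.9 ± 1.91 to 18.5 ± 2.90 FPKM (SD, n = 5 each) with overlap, and the scaffold Ecpas from 19.2 ± 1.47 to 27.0 ± 0.949 FPKM without. Txnl1, a thioredoxin-like protein of the cap, rose from 5.15 ± 0.771 to 9.16 ± 0.990 FPKM. The ubiquitin receptor Adrm1 and the small lid subunit Sem1 rose as well. Usp14, a deubiquitinase that trims chains at the cap, fell from 9.66 ± 1.08 to 6.97 ± 0.622 FPKM (adjusted p = 5.6e-04, limma) without overlap. Uchl5, the other such enzyme, did not pass (8.06 ± 1.20 and 6.87 ± 0.464 FPKM).

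Of 13 genes that make or carry ubiquitin 8 rose and none fell, with a median difference of 0.25. They included the polyubiquitin gene Ubb (201 ± 10.3 to 331 ± 13.4 FPKM, SD, n = 5 each) and the activating enzyme Uba1 (72.4 ± 3.77 to 106 ± 3.20 FPKM). In both genes the groups did not overlap. Rps27a, which encodes ubiquitin fused to a ribosomal protein, did not pass at 32.6 ± 2.07 and 33.1 ± 6.22 FPKM.

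Of 10 genes that act in the transcription of proteasome genes 4 rose, 1 fell and 5 did not pass, with a median difference of 0.04. Nfe2l1, the factor known for raising proteasome genes when the proteasome is impaired, went from 41.9 ± 2.95 to 72.0 ± 3.61 FPKM (SD, n = 5 each; difference 0.77, adjusted p = 3.02e-08, limma). Ddi2, the protease that releases its active form, moved the opposite way, from 14.6 ± 1.08 to 8.26 ± 0.245 FPKM (difference -0.75, adjusted p = 9.64e-08, limma). The groups did not overlap in either gene. The small Maf partners Maff (2.95 ± 0.781 to 16.4 ± 1.59 FPKM) and Mafg (23.4 ± 1.61 to 32.4 ± 2.25 FPKM) rose, as did the CCAAT-binding subunit Nfya. Nfe2l2, the related factor of the oxidative stress response, did not pass at 112 ± 5.57 and 105 ± 3.28 FPKM (adjusted p = 0.117, limma; 3.53e-05 to 0.817 over all alternatives). It passed as lower after quantile normalization (difference -0.32, adjusted p = 3.53e-05, limma). The same held in a fit on read counts recovered from the FPKM values (-0.11, adjusted p = 0.0330, limma with voom).

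Of 7 genes of MHC class I display, including the transcriptional regulators Nlrc5 and Irf1, 6 rose and none fell, with a median difference of 1.003. The peptide transporter subunits Tap1 (13.3 ± 1.23 to 52.1 ± 4.23 FPKM, SD, n = 5 each) and Tap2 (14.3 ± 1.51 to 32.5 ± 1.49 FPKM) stand beside Psmb8 and Psmb9 in the genome. Because Tap1 overlaps Psmb9, the reads in their shared 212 bases cannot be told apart without strand. Tapbp, which loads the peptides, rose from 112 ± 2.64 to 284 ± 15.1 FPKM, and Nlrc5, an activator of class I genes, from 9.88 ± 1.12 to 20.7 ± 1.02 FPKM. Erap1, which trims peptides, did not pass (14.8 ± 0.973 and 16.1 ± 0.661 FPKM, adjusted p = 0.0824, limma).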

How the data were processed

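RNA libraries of 5 untreated and 5 PLG samples were compared, grouped by their titles. The authors deposited one FPKM value per protein-coding gene and sample, with gene lengths. Build GRCm38.p6, the counter featureCounts 2.0.0, the aligner STAR 2.7.3a and also DESeq2 1.24.0, FastQC 0.11.9 and cutadapt 2.10 are listed in the submitters' processing notes, without their settings. FPKM steps matched whole reads (tolerance 0.1 read) for at least 99.9% of the low values tested in each library, which gave totals of 31977240 to 70737017 reads. The main test was limma 3.58.1 (R 4.3.3, eBayes with trend) on log2(FPKM + 1), filtered at 1 FPKM in 5 samples, with Benjamini-Hochberg adjustment over 9997 genes and a threshold of 0.05. It was tested on simulated data. The 3 ratios used exact permutation tests (scipy 1.17.1).

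Every gene matching the symbol rule is accounted for, with values by sample for those the results turn on. The members and lists were chosen with earlier results of these data known. The main test did not pair samples by the replicate numbers shared between the groups, since no label says what these numbers mean. Of the lists, Paaf1, Elane, Retnlg, Hba-a1 and Fcer1a were not analysed here, and some other genes are not reported here. Alternatives covered the pseudocount, filter, scaling, fit and single samples. 3 were chosen after seeing the data: the principal transcript length, leaving out 3 repeat-like gene models, and leaving out the 3 samples lowest in them.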

Additional observations from a re-analysis of the deposited data

Results flagged for a closer look

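Of 106 groups of 5 values screened, 3 held a sample far from the other 4, where chance gives about 1 in 20 groups. Psmb11, the thymus core subunit, was at 0.206 FPKM in untreated 2 and at 0 to 0.039 FPKM in the other untreated samples. In PLG samples it was at 0.077 FPKM in PLG 3 and at 0 in the others. Psmd6, a lid subunit, was at 16.3 FPKM in untreated 2 and at 12.2 to 12.9 FPKM in the other untreated samples.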

How the results depend on the processing

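Of the 37 members that rose or fell, 31 kept their call and direction in every alternative that gave them a value. There were 23 alternatives, and 22 for Psmf1, which was below the filter of 5 FPKM. Psma4, Psmb1, Psmb3, Psmc3, Psmd12 and Psmd2 lost the call in at least 1, and Psmb2, Psme2b and Psme3 gained one in at least 1. The members that rose numbered 30 to 38, lowest after scaling to a common sum or quantile normalization and highest after median-of-ratios scaling. Of all genes, 2555 rose and 2182 fell after scaling to a common sum, 2705 and 3526 after quantile normalization, and 3124 and 3016 after median-of-ratios scaling. With a fold of at least 2 required, 8 members rose and 0 fell, and 835 and 567 of all genes did. Members that fell numbered 2 after quantile normalization and 1 to 2 when single samples were left out. In the latter fits all genes that rose numbered 2462 to 2967 and those that fell 2781 to 3037.

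The replicate block gave 2797 and 2988 of all genes and 34 members higher. The correlation of deviations of same-numbered samples was -0.121 to 0.0988. With 5 samples per group this cannot decide whether same-numbered samples shared a mouse, culture or day, and no label says so. In the paired form Psmb8 to Psmb5 (0.81) and Psmb9 to Psmb6 (1.14) had p = 0.0625 by an exact test, the smallest that 5 pairs allow. Without the 3 samples lowest in the repeat-like models they were 0.87 and 1.14, with exact p = 0.0571, the smallest that design allows. Leaving out single samples gave 0.77 to 0.84 (Psmb8 to Psmb5), 1.07 to 1.23 (Psmb9 to Psmb6) and -0.0326 to 0.191 (Psmb10 to Psmb7). The log2 ratio Psmb10 to Psmb7 was -0.0157 after quantile normalization.

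Differences near 0 changed sign, and the cause was not tested. After quantile normalization Psmd2 was at -0.0141, Psmd6 at -0.0080 and Psme4 at -0.0554. Psmd9 was at 0.0160 after scaling to a common sum, 0.0051 after median-of-ratios scaling, 0.0025 after quantile normalization and 0.0504 without the 3 samples. It was at 0.0071, 0.0318 and 0.0137 without untreated 1, PLG 3 and PLG 5, within a range of -0.0558 to 0.0318 when single samples were left out. Psmg1 was at 0.0049 and Psmg3 at -0.0220 without the 3 samples. Psmg1 ranged from -0.310 to 0.0569 when single samples were left out, and was positive without untreated 2. Voom on the recovered reads called 2851 genes higher and 3357 lower. Psma8, Psmb11 and Psmc3ip were left out by the filter of 1 FPKM and entered only the fit without a filter.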
